A study of Mus musculus with 12 samples.

Results

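Peaks of BATF chromatin immunoprecipitation sequencing (ChIP-seq) from Th9 and Th17 cells were pooled and merged wherever they shared 1 bp, which gave 5873 regions. Of these, 4032 were called by at least 1 library in all 3 of its lists (against input, against IgG and against both), 3116 of those had a summit base outside soft-masked repeats, and 2910 of those lay more than 2000 bp from every curated RefSeq start site. The 2279 regions studied here, 38.8% of all merged regions, were those of the 2910 with no exact AP-1 consensus (TGAGTCA, which reads TGACTCA on the other strand) within 100 bp of the summit. The other 631 of the 2910 held the consensus and served as the comparison set, called AP-1 distal regions below. The 2279 are called AP-1-free distal regions. The rule did not use any other sequence, and peak strength entered it only through the authors' threshold and the choice of the summit with the highest −log10 q.

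Naive CD4+CD62L+ T cells of adult C57BL6/J mice were activated with antibodies to CD3 and CD28 and cultured to day 5 without restimulation. Th9 cultures received mIL-4, hIL-2 and hTGF-β1 with an antibody to IFN-γ. Th17 cultures received mIL-6, hTGF-β1, mIL-23 and mIL-1β with antibodies to IFN-γ, IL-4 and IL-2. BATF was precipitated in 2 libraries of Th9 cells (replicates 1 and 2) and 2 of Th17 cells (replicates 3 and 4), each with its own input and IgG libraries, and nothing says whether they came from separate cultures or animals. The cell types rest on the labels, because peak lists hold no expression values.

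BATF is a basic leucine zipper (bZIP) protein of the AP-1 family that has no activation domain of its own and works as a dimer with JUN proteins. In T helper cells, BATF-JUN dimers pair with IRF4 at composite elements, where an AP-1 site and an IRF half-site with the letters GAAA lie next to each other, and these elements tolerate departures from the AP-1 consensus. BATF is needed for Th17 and Th9 differentiation and for follicular helper cells.

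The sequences below are those of the 10 AP-1-free distal regions called in 3 or more libraries with the highest summed −log10 q. They are shown because they are the members seen most often. Each runs 50 bp to either side of the summit, on the plus strand of GRCm38 (mm10), and is named after the gene with the nearest curated start site. Capitals mark words that differ from the AP-1 consensus at 1 position, the cyclic AMP response element (CRE) TGACGTCA, and the AP-1 half-sites TGACT and TGAGT, on either strand.
Prdm14 (chr1:13155431-13155531): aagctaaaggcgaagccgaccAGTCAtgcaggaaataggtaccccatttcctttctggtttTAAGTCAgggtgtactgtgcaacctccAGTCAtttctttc
Trps1 (chr15:50361963-50362063): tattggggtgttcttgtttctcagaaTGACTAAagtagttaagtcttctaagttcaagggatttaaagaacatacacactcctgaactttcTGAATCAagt
Fam133b (chr5:3494832-3494932): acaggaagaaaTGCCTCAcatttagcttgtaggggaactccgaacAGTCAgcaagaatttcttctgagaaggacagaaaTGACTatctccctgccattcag
Icos (chr1:61054603-61054703): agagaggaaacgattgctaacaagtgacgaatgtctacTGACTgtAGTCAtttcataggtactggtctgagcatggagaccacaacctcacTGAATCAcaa
Hif1a (chr12:73888104-73888204): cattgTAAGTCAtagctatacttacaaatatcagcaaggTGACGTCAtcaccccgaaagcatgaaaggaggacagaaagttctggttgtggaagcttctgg
Kcnh5 (chr12:74895174-74895274): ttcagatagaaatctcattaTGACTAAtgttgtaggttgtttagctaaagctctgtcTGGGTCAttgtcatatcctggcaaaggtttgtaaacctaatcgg
Nxpe3 (chr16:55907219-55907319): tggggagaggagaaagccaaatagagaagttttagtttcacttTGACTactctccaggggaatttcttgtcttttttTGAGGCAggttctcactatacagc
Gm29686 (chr16:51910106-51910206): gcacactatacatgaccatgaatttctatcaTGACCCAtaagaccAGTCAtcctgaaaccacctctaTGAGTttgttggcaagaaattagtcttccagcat
Sspn (chr6:145981237-145981337): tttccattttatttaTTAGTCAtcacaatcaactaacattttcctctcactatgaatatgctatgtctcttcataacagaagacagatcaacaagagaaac
Adap1 (chr5:139303767-139303867): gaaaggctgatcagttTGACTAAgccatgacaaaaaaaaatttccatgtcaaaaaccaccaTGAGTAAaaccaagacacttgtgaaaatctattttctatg

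Every one of the 10 stretches held at least 1 capitalised word. Such words are common: TGACT or TGAGT alone lay within 50 bp of the centre in 49.5% of all members and in 37.8% of flanking windows 2000 bp away. Those near *Trps1*, *Kcnh5*, *Sspn* and *Adap1* held TGACTAA (or its complement TTAGTCA), which differs from the consensus at 1 base. The stretch near *Hif1a* held a CRE and the 1-mismatch word TAAGTCA. Across all 20 members called in 3 or more libraries, TGACT lay within 100 bp of the summit in 19 and within 50 bp in 17. In the flanking windows the shares were 36.7% within 100 bp and 20.4% within 50 bp.

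For comparison, 1 further stretch is printed for each family of sites that was more frequent in the AP-1-free distal regions than beside them. Each is the member with the highest −log10 q among those with such a site within 50 bp of the summit. Capitals mark the site of that family only: the loose composite of a bZIP word and an IRF half-site, RUNX, ETS, the STAT palindrome, the interferon-stimulated response element (ISRE) bound by IRF proteins, and C/EBP.
4930431F10Rik, composite (chr10:44821744-44821844): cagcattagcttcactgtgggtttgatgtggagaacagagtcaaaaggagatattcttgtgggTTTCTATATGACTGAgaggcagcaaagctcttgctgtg
Mir7661, RUNX (chr6:108553242-108553342): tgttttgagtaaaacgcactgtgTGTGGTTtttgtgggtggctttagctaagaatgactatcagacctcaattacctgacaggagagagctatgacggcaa
Inpp4b, ETS (chr8:81765519-81765619): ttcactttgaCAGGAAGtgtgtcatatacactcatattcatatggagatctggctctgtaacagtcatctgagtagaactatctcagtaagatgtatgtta
Trps1, STAT (chr15:50361963-50362063): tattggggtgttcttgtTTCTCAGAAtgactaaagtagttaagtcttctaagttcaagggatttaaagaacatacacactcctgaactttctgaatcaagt
Glrx, ISRE (chr13:75832872-75832972): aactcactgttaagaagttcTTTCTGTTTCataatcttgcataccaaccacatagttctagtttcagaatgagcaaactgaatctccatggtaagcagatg
Wdr26, C/EBP (chr1:181257806-181257906): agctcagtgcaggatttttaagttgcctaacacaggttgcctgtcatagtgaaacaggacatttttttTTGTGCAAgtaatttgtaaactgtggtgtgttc
In the stretch near *Trps1*, the STAT palindrome ends directly before the word TGACTAA. The strongest member with a 1-mismatch AP-1 word was also the region near *Trps1*, so no further stretch is printed for those words.

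The number of AP-1-free distal regions per library followed the number of peaks. Of the 2279, 687 were called in Th9 replicate 1, 84 in Th9 replicate 2, 1571 in Th17 replicate 3 and 68 in Th17 replicate 4. These were 40.2%, 34.9%, 38.2% and 34.3% of all merged regions of those libraries, so the share of regions of this kind differed little where the counts differed widely. The lists called against both controls held 199 to 4111 peaks. They carry no read counts, from which depth could be had, and a region without a peak in a library is below that library's threshold, not shown to be unbound. Members seen in Th9 libraries only numbered 679, in Th17 libraries only 1530, and in both cell types 70.

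**Figure D1:**
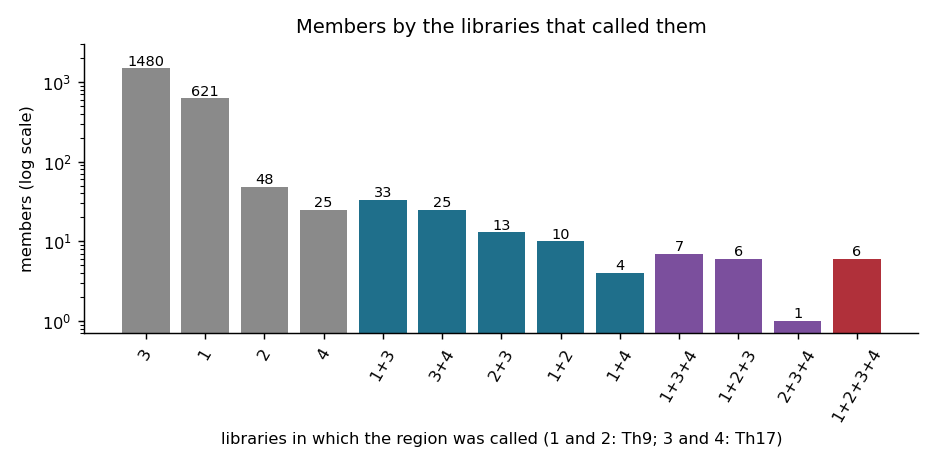
Number of AP-1-free distal regions (log scale) by the combination of libraries that called them; libraries 1 and 2 are Th9 and libraries 3 and 4 Th17. Most members were called in library 3 only (1480) or library 1 only (621), and 6 were called in all 4.

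Few of these regions recurred between libraries. In all, 105 of 2279 (4.61%, exact 95% interval 3.78 to 5.55) were called in 2 or more libraries, against 121 of 631 AP-1 distal regions (19.2%). The difference was −14.6 percentage points (95% interval −17.9 to −11.5; Fisher's exact test, two-sided, p = 4.23e-28). By this count they were nearer to the 797 masked distal regions without AP-1, of which 21 (2.63%) recurred (p = 0.0165 for the difference of 1.97 points, Fisher's exact test). Exact intervals here and below cover counting error only, and regions are not replicates of a cell type.

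The peaks themselves were also weaker. In Th9 replicate 1 the median −log10 q was 3.82 in the 687 AP-1-free distal regions and 7.30 in the 176 AP-1 distal regions. In Th9 replicate 2 it was 4.62 against 9.01 (84 and 60 regions), and in Th17 replicate 3 it was 4.12 against 8.14 (1571 and 504 regions). These 3 differences passed a permutation test of the medians within the library (100000 resamples, two-sided; adjusted p = 2e-05, 6.67e-05 and 2e-05 over the 4 libraries, where 1e-05 is the smallest unadjusted p the resamples can give). In Th17 replicate 4 the medians were 6.82 and 7.93 (68 and 64 regions) and the difference did not pass (adjusted p = 0.485 by the same permutation test). Median fold enrichments of the AP-1-free regions, that is, summit signal divided by the background expected there, were 5.54, 6.40, 5.65 and 7.57 in replicates 1 to 4.

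**Figure D2:**
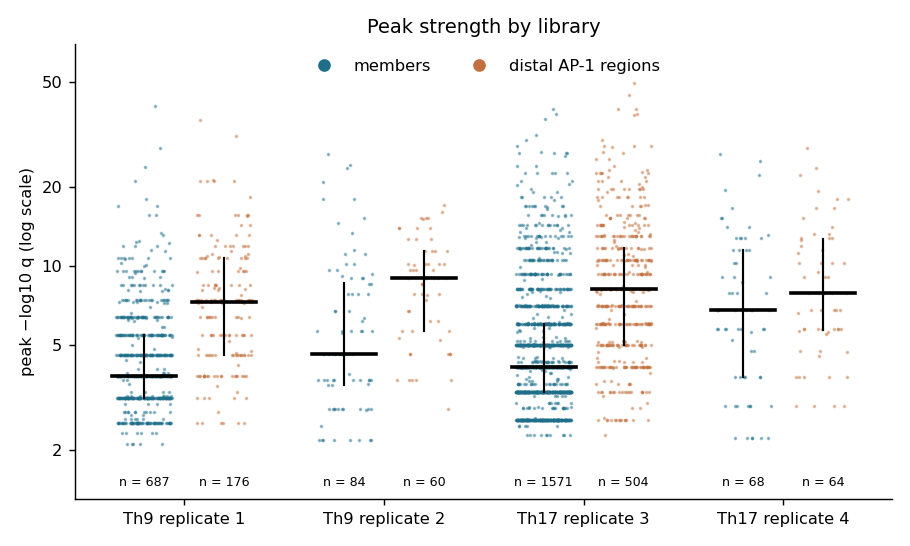
Peak −log10 q (log scale) of AP-1-free distal regions (members) and AP-1 distal regions in each library; a point is a region, the horizontal bar the median and the vertical bar the 25th to 75th percentile. The members' medians lie below those of the AP-1 distal regions in all 4 libraries, by 1.11 in Th17 replicate 4 and by more in the other 3.

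The strongest members stood far above these medians. The region near *Trps1*, which encodes a GATA-type zinc finger repressor, lay between genes at chr15:50361870-50362207, 527036 bp downstream of the nearest start site. Its −log10 q was 40.5 and 6.35 in Th9 replicates 1 and 2 and 27.0 and 12.7 in Th17 replicates 3 and 4, and it headed the members in Th9 replicate 1. The region in the intron at chr1:13155271-13155696, nearest to the start of the germ-cell regulator gene *Prdm14*, had −log10 q of 23.9, 20.9, 39.7 and 12.7 in replicates 1 to 4. It headed Th17 replicate 3. Another region called in all libraries lay between genes at chr12:73887990-73888344, 13170 bp upstream of *Hif1a*, whose product is the hypoxia-induced factor that favours Th17 differentiation. Its −log10 q was 12.5, 6.75, 36.4 and 6.82, so it was highest in Th17 replicate 3, the library with the most peaks. Here and below, −log10 q is not comparable between libraries of different depth.

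Other recurrent members showed other orders. The intronic region at chr5:3494777-3495095, nearest to *Fam133b*, had −log10 q of 18.02 and 24.2 in Th9 replicates 1 and 2 and of 10.5 and 26.7 in Th17 replicates 3 and 4, and headed Th17 replicate 4. The region at chr1:61054497-61054948, 76739 bp downstream of the start of *Icos*, the costimulatory receptor of follicular helper and other effector T cells, was called in Th9 replicate 2 (11.5) and in both Th17 libraries (26.2 and 25.2), and had no peak in Th9 replicate 1. The intronic region at chr16:55907115-55907395 near *Nxpe3* was called in both Th9 libraries (28.2 and 13.3) and in Th17 replicate 3 (9.30). Masked bases made up 52.2% of its 201-bp window, although its summit base was not masked.

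The remaining 4 recurrent members named by the rule had peaks in both cell types. The region near the potassium channel gene *Kcnh5* had −log10 q of 7.30 in Th9 replicate 1 and 22.6 and 22.2 in the Th17 libraries. That near *Sspn*, which encodes sarcospan, had 5.46, 5.67, 16.9 and 11.5 in replicates 1 to 4. The intronic region near *Adap1* had 6.38, 16.9 and 15.3 in replicates 1, 3 and 4, and the region near the non-coding gene *Gm29686* had 11.5, 15.6 and 16.6 in the same 3. Th9 and Th17 libraries were not tested against each other at single regions, where an exact permutation test of 2 against 2 libraries cannot go below p = 0.33.

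Some strong members were seen in few libraries. The intronic region at chr8:81765410-81765709, nearest to the start of the phosphoinositide phosphatase gene *Inpp4b*, had a −log10 q of 38.0 in Th17 replicate 3 and no peak in the other 3 libraries. The regions nearest to the nucleoporin gene *Nup160* (26.6 in Th9 replicate 2 and 27.2 in Th17 replicate 3) and to the phospholipase gene *Ddhd1* (23.7 and 26.8 in the same libraries) were among the 3 strongest members of Th9 replicate 2. Their windows had a GC content of 62.7% each, against a mean of 41.4% ± 7.30 (SD, n = 2279) over all members.

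AP-1-free distal regions lay both between and within genes and were mostly unique sequence. The distance from the summit to the nearest curated start site had a median of 46140 bp (25th to 75th percentile 16842 to 134702 bp), and 702 regions (30.8%) were more than 100 kb away. By RefSeq annotation 1164 (51.1%) lay between genes, 1052 (46.2%) in introns, 30 in coding exons and 33 in other exons. AP-1 distal regions had 50.6% between genes and 47.4% in introns. Every 31-letter word at the centre occurred once in the genome in 2145 members (94.1%), and 22 members (0.965%) had a median of more than 1 copy. At the edge of the rule, the region closest to a start site lay 2065 bp from *Tom1l1* (−log10 q 4.12), and the closest region left out lay 1980 bp from *Gm4827* (−log10 q 10.99). The nearest AP-1 consensus allowed by the rule ended 101 bp from the summit, near *4930430J02Rik* (−log10 q 11.7) and *Fhit* (3.82), while 1 ending at 100 bp left out the region near *LOC432842* (4.12).

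The question of which other sites these regions hold was addressed against sequence beside them. Windows of 201 bp around the 2279 summits were compared with 3131 flanking windows centred 2000 bp to either side. A flank had to have an unmasked centre, no exact AP-1 consensus and no overlap with a pooled peak. Flanks were not held to the distance from start sites, so some may lie close to 1, which bears on GC content and G-rich words. For 231 members neither flank qualified. Sites of 26 families were searched on both strands as exact letters, and shares of windows with at least 1 site were compared by Fisher's exact test (two-sided) with Benjamini-Hochberg adjustment over the 26. All Fisher tests against flanks treated the windows as independent. They did not use the pairing of a flank with its member, and the 231 members without a flank stayed in. Of the 26 families, 9 (34.6%) were more frequent in the regions than in the flanks and 1 (3.85%) was less frequent.

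The largest change was in near-consensus AP-1 sites. The words TGAGTAA and TGACTAA, called the BATF half-variant because 1 side of the palindrome departs from the consensus, were present in 308 of 2279 regions (13.5%) against 6.004% of flanks. The difference was 7.51 percentage points (95% interval 5.90 to 9.17; adjusted p = 1.88e-19, Fisher's exact test), a ratio of 2.25. It kept its call under each alternative tried, but its size varied. The difference was 2.11 points in windows lacking 1-mismatch words within 50 bp of the centre (adjusted p = 0.0268), 13.3 points at a −log10 q of 5 or more and 30.3 points in regions called in each library of 1 cell type (adjusted p = 0.000268, Fisher's exact test). The word TGAATCA, with A or T at the centre depending on the strand, was present in 5.397% against 3.10% (2.30 points; adjusted p = 0.000153, Fisher's exact test). It was not called without Th17 replicate 3 (1.11 points; adjusted p = 0.563, Fisher's exact test). Any word with 1 mismatch to the consensus was present in 1237 regions (54.3%) against 44.7% of flanks (9.56 points, 95% interval 6.87 to 12.2; adjusted p = 4.91e-11, Fisher's exact test). Both of the preceding families are among these 1-mismatch words, so the 3 results are not independent. Over the Th9 libraries alone the 1-mismatch difference was 5.64 points (adjusted p = 0.088) and over the Th17 libraries alone 12.2 points (adjusted p = 1.57e-12, Fisher's exact test).

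The loose composite element was the family with the highest ratio. It was searched as GAAA directly before, or TTTC and any 4 letters before, the word TGANTNA, which covers arrangements in which BATF-JUN and an IRF protein sit side by side. It was found in 53 regions (2.33%) against 0.830% of flanks (1.495 points, 95% interval 0.830 to 2.25; adjusted p = 5.69e-05, Fisher's exact test), a ratio of 2.80. The composite contains a near-consensus AP-1 word in part of its matches, so it overlaps with the families above. In windows lacking a 1-mismatch word within 50 bp of the centre, the difference was 0.33 points (adjusted p = 0.468, Fisher's exact test), and with no masked base in the window it was 1.78 points (adjusted p = 0.124). In regions called in each library of 1 cell type it was 9.09 points (adjusted p = 0.077), and without Th17 replicate 3 it was 2.85 points (adjusted p = 3.47e-05, Fisher's exact test).

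RUNX sites were the clearest of the families outside bZIP. RUNX factors are needed for T cell development and for the Th17 programme, and their words TGTGGTT and TGCGGTT were present in 175 regions (7.68%) against 4.79% of flanks (2.89 points, 95% interval 1.59 to 4.24; adjusted p = 6.71e-05, Fisher's exact test). The call held without each library in turn, where the difference ran from 2.86 to 3.45 points. It was lost in windows with no masked base (3.70 points; adjusted p = 0.124) and in windows lacking 1-mismatch AP-1 words within 50 bp of the centre (1.25 points; adjusted p = 0.314, Fisher's exact test).

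The STAT, ISRE, ETS and C/EBP families passed the threshold narrowly, each with an adjusted p of 0.0455. STAT factors carry cytokine signals, and their palindrome TTCNNNGAA was present in 192 regions (8.42%) against 6.68% of flanks (1.75 points, 95% interval 0.332 to 3.21). The version with a spacer 1 base longer, which STAT6 prefers, was present in 6.89% against 5.94% and did not pass (adjusted p = 0.316, Fisher's exact test). ETS words (CAGGAAG or CCGGAAG) were present in 206 regions (9.04%) against 7.19% (1.85 points), the ISRE (GAAANNGAAA), to which IRF proteins bind as dimers, in 92 (4.04%) against 2.84% (1.19 points), and C/EBP words (TTGCGCAA, TTGCACAA or TGATGCAA) in 41 (1.80%) against 1.02% (0.78 points). None of these 4 calls held under every alternative, and each was lost in most of those that kept all libraries or restricted regions otherwise. Apart from leaving out 1 library, the call was kept in 4 alternatives for STAT, 5 for ETS, 1 for ISRE and 3 for C/EBP. It was lost with the same sign in 8, 8, 13 and 9. The sign reversed in 2 for STAT, 1 for ETS and 2 for C/EBP. These counts include the search with reversed letters described below. STAT was not called without Th9 replicate 1, Th9 replicate 2 or Th17 replicate 4 (1.03, 1.61 and 1.58 points; adjusted p = 0.411, 0.0858 and 0.0884, Fisher's exact test). Without Th17 replicate 3 its difference was 3.90 points (adjusted p = 0.0153, Fisher's exact test). Over the Th9 libraries alone it differed by 3.67 points (adjusted p = 0.0283) and over the Th17 libraries alone by 0.76 points (adjusted p = 0.65, Fisher's exact test). ETS was not called without Th17 replicate 3 or replicate 4 (adjusted p = 0.609 and 0.0786, Fisher's exact test), and ISRE and C/EBP lost their calls when Th9 replicate 2, Th17 replicate 3 or Th17 replicate 4 was left out (adjusted p from 0.0709 to 1, Fisher's exact test).

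Each family was also searched with its letters in reversed order, uncomplemented, which keeps the base composition of the word. Reversed AP-1 words can still hold a half-site: TGAGTAA reversed is AATGAGT, which holds TGAGT. For the AP-1 families this search therefore cannot separate base composition from half-sites. The reversed half-variant was itself more frequent in the regions (9.04% against 6.61%, a difference of 2.43 points; unadjusted p = 0.00107, Fisher's exact test), which is smaller than the 7.51 points of the true letters. The reversed ISRE differed by 1.22 points (unadjusted p = 0.0208, Fisher's exact test), about the 1.19 points of the ISRE itself. The reversed 1-mismatch words were also more frequent in the regions, 48.7% against 46.0% (2.79 points; unadjusted p = 0.0441, Fisher's exact test), where the true letters gave 9.56 points. Reversed STAT, ETS, RUNX and composite letters differed by −0.25, −0.66, 0.27 and −0.20 points. The windows had a slightly lower GC content than their flanks, 41.4% ± 7.30 (SD, n = 2279) against 42.2% ± 7.79 (SD, n = 3131). Over the 2048 members with a flank the paired difference was −0.47 points (permutation of signs, 100000 resamples, two-sided, p = 0.00642), and −0.36 points without Th17 replicate 3 (p = 0.2 by the same permutation). In regions called in each library of 1 cell type it was −3.25 points (p = 0.00419 by the same permutation). With GC content of the window as a covariate in a logistic regression, 6 of the 9 families kept their calls. STAT, ISRE and C/EBP lost theirs, at differences of 1.65, 0.99 and 0.73 points.

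The remaining 16 families showed no called gain. The ETS:IRF composite GGAANNGAAA, a site of IRF4 with PU.1, was present in 1.84% of regions against 2.14% of flanks. The GATA words AGATAA and TGATAA were present in 23.9% against 21.8% (adjusted p = 0.153), and the NFAT word TGGAAA in 21.7% against 21.2% (adjusted p = 0.814, Fisher's exact test). The CRE was present in 6 regions and 3 flanks. The 1 family called lower was the G-quadruplex pattern of repeated G runs, in 0.79% of regions against 2.46% of flanks (difference −1.67 points; adjusted p = 1.46e-05, Fisher's exact test). In all, 1497 regions (65.7%) and 56.8% of flanks held a site of at least 1 of the 9 families, so 782 regions (34.3%) held none of them. The 9 were picked as more frequent in these same regions, so that contrast follows from the choice and is not a separate result.

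**Figure D3:**
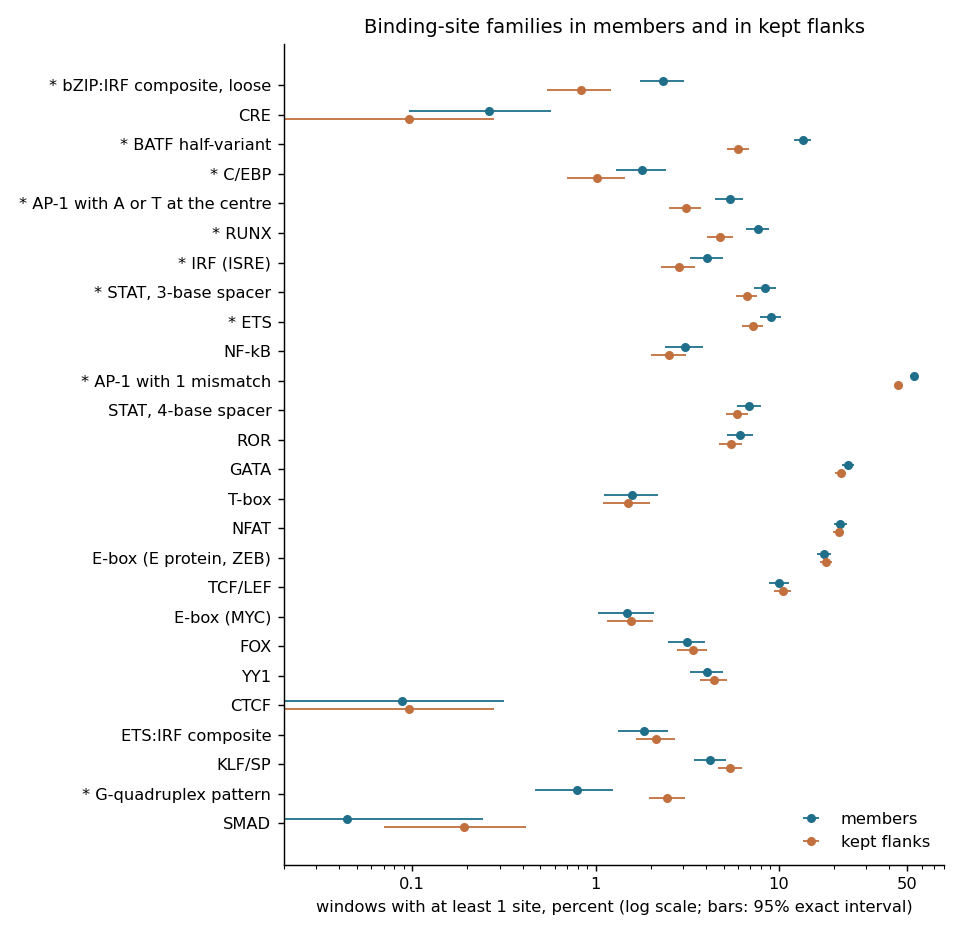
Share of windows (percent, log scale) with at least 1 site of each of 26 families in AP-1-free distal regions and in flanks 2000 bp away; bars are exact 95% intervals and an asterisk marks an adjusted p under 0.05. The BATF half-variant lies at 13.5% in the regions and 6.004% in the flanks, and the loose composite at 2.33% and 0.830%.

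Word by word, the 1-mismatch variants were not equal. TGACTAA was present in 180 regions (7.90%, against 3.29% of flanks) and TGAGTAA in 145 (6.36% against 2.84%). TGACACA (6.85% against 4.31%), TGACTGA (5.31% against 3.39%) and TGACTCC (3.95% against 2.68%) stood between. TGAGCCA and TGAGTCC were less frequent in the regions than in the flanks (4.30% against 5.11%, and 2.11% against 2.91%). These single words are descriptions and were not tested. The half-variant words had the highest shares in members with a −log10 q of 8 or more, 19.1% for TGACTAA and 15.2% for TGAGTAA.

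A search over all words of 6 letters, each taken with its complement, named no factor beforehand. Of these words 31 (1.49%) were more frequent in the regions than in the flanks and 19 (0.913%) less frequent at an adjusted p under 0.05 (Fisher's exact test). The word of lowest p was AGTCAT, or ATGACT on the other strand, in 21.7% of regions against 10.7% of flanks (11.02 points; adjusted p = 6.14e-25, Fisher's exact test). It was followed by CAGTCA (19.0% against 11.6%), AATGAC (16.8% against 9.81%) and TAGTCA (16.4% against 9.58%). Then came GATGAC (12.3% against 6.99%), GTCATA (11.7% against 6.71%), AAATGA (29.1% against 21.9%), GACTAA (11.6% against 7.06%), ACTCAT (15.3% against 10.2%) and CATTTC (23.7% against 17.8%). Of these, AAATGA and CATTTC, which reads GAAATG on the other strand, are parts of GAAATGA, where an IRF core runs into an AP-1 start. Of the 31 words, 7 share 5 letters in a row with the AP-1 consensus, as do 22 of all words searched.

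The words lower in the regions were of another kind. The 10 of lowest p were CCCACC (7.85% against 12.2%), CCCCCC (2.54% against 5.11%), AGGGGG (4.87% against 8.05%), TGGACA (8.78% against 12.7%), CTGGAC (6.93% against 10.3%), CCCCAC (8.51% against 12.01%), CCCCCA (8.03% against 11.3%), ACCCCC (4.30% against 6.71%), AGGTGG (9.83% against 13.2%) and GGGGGA (6.14% against 8.91%). A run of 3 or more G or C occurred in 12 of the 19 lower words and in none of the 31 higher words, against 208 of all words searched. Both counts fell without the largest library. Without Th17 replicate 3 the members numbered 786, 5 words were higher, all among the 31, and none was lower. Why the counts fell was not tested.

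The 5-letter start of the consensus, TGACT, was then counted, a choice made after the words above were seen and given here as a description. It was present within 100 bp of the summit in 1115 regions (48.9%) and 36.7% of flanks, and TGAGT in 43.7% and 37.9%. Longer words around it were rarer. ATGACTA was present in 7.15% against 2.78%, ATGACTG in 8.12% against 3.13%, ATGACTT in 5.48% against 3.64% and ATGACTC in 2.90% against 1.41%. GAAATGA was present in 238 regions (10.44%) against 5.398%, and GAAATGAC in 2.81% against 0.767%. Both forms occur in the printed stretches near *Prdm14* and *Fam133b*, on the minus and the plus strand in that order. They were more frequent still in the AP-1 distal regions, at 17.4% and 7.45%, although both can overlap the consensus that defined those regions. ATGACTA (8.56%), ATGACTG (12.2%) and ATGACTT (6.34%) were also more frequent there than in the AP-1-free regions.

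Some of these sites also clustered at the summit. The half-variant began in 4.48% of regions per 50 bp bin in the 2 bins next to the summit and in 1.32% per bin 500 bp or more away, a ratio of 3.40. The loose composite had the steepest profile (0.834% against 0.202%, ratio 4.13). RUNX sites had a ratio of 1.63 (2.33% against 1.43%) and any 1-mismatch AP-1 word 1.47 (20.6% against 14.01%). ETS and STAT were flatter (1.28 and 1.198), and ISRE was nearly level (1.097). Next to the summit these 3 had shares of 2.35%, 2.28% and 0.943%. Single bins 500 bp or more away reached 2.41%, 2.33% and 1.14%, so these 3 lay within the range of the distant bins. These profiles are over the same regions and carry no test. Unlike the flanks, the distant bins were not held to the rules on masking, the AP-1 consensus and overlap with peaks.

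**Figure D4:**
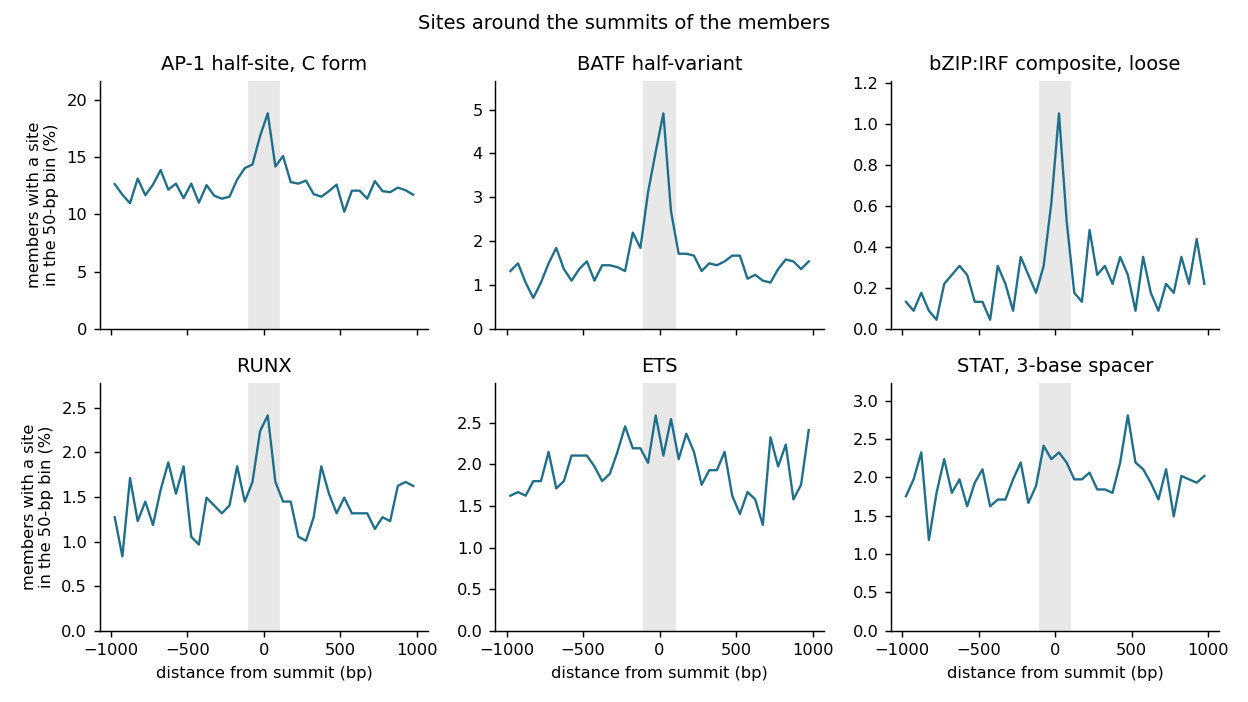
Percent of AP-1-free distal regions with a site starting in each 50 bp bin, by distance from the summit in bp, for the C form of the AP-1 half-site (TGACT), the BATF half-variant, the loose composite, RUNX, ETS and STAT; grey marks 100 bp to either side of the summit. The half-variant and the composite rise at the summit, by 3.40 and 4.13 times over bins 500 bp or more away. STAT has a ratio of 1.198, and its share at the summit lies within the range of those distant bins.

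Stronger peaks held more of these sites. The bounds below were chosen with these data in view, and −log10 q is not comparable between libraries, so the shares are descriptions. Regions were divided by their highest −log10 q over the libraries into 390 from 2 to 3, 986 from 3 to 5, 574 from 5 to 8 and 329 of 8 or more. The half-variant was present in 8.21%, 9.94%, 13.1% and 31.3% of these. The loose composite was present in 1.03%, 1.22%, 1.39% and 8.81%, and 1-mismatch words in 45.6%, 52.6%, 52.3% and 72.9%. The rise was therefore largest in the top group. RUNX went from 6.67% and 6.19% to 8.01% and 12.8%, and ETS from 6.67% through 7.81% and 10.5% to 13.1%. STAT moved less (6.41%, 8.42%, 9.06% and 9.73%), and ISRE had no steady order (5.13%, 2.84%, 4.18% and 6.08%). GATA ran the other way, at 25.4%, 25.9% and 25.96% in the lower groups and 12.5% in the top one.

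For the half-variant the rise was also present within each of the 2 libraries with the most peaks. In Th9 replicate 1, 7.84%, 8.94%, 16.6% and 32.3% of the 102, 369, 151 and 65 regions in these groups held the half-variant. In Th17 replicate 3 the shares were 8.08%, 10.5%, 14.02% and 32.6% of 260, 612, 435 and 264 regions. The composite also had its highest share in the top group of both (12.3% and 8.71%). The other families differed between these libraries. In Th17 replicate 3, ETS rose to 14.02% and GATA fell to 9.09% in the top group, as over all members. In Th9 replicate 1, ETS was present in 6.86%, 8.94%, 7.28% and 6.15% of the groups and GATA in 23.5%, 24.4%, 25.2% and 23.1%, so neither showed the order seen over all members, and ISRE was present in 0 of the top 65 (exact 95% upper limit 5.52%). The shares also rose with recurrence, and the half-variant was present in 12.4% of regions called in 1 library, 34.1% of the 85 called in 2 and 9 of the 20 (45.0%) called in 3 or 4. All 20 of the latter held a 1-mismatch word.

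**Figure D5:**
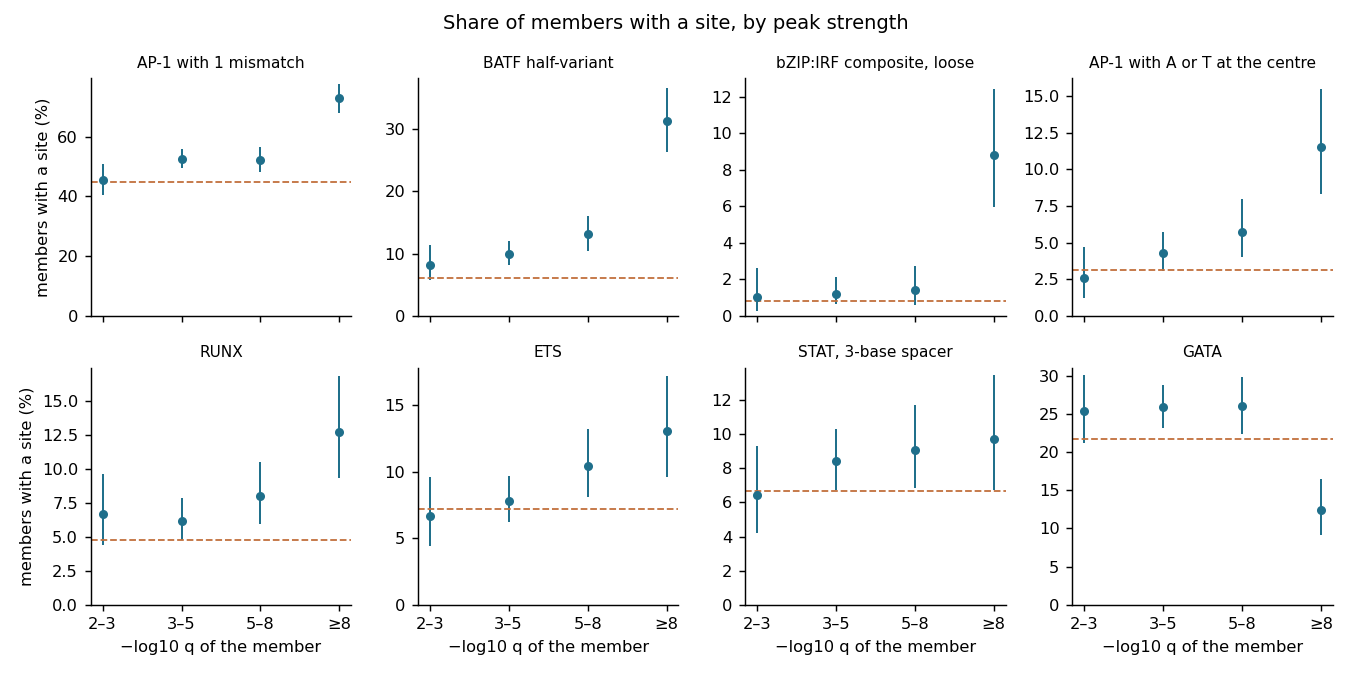
Percent of AP-1-free distal regions with a site of 8 families, by the highest −log10 q of the region (2 to 3, 3 to 5, 5 to 8, and 8 or more); bars are exact 95% intervals and the dashed line is the share in flanks. The half-variant rises from 8.21% to 31.3% while GATA falls from 25.4% to 12.5%.

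An exact AP-1 consensus was also more frequent just outside the window that the rule cleared. Between 100 and 300 bp from the summit, 215 regions (9.43%, exact 95% interval 8.26 to 10.7) held it, against 7.19% of flanks (2.25 points, 95% interval 0.764 to 3.78; Fisher's exact test, two-sided, p = 0.00296). Without Th9 replicate 1 the difference was 1.69 points (p = 0.0613, Fisher's exact test).

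Families were also compared between AP-1-free and AP-1 distal regions, leaving out 4 that share letters with the rule. Of 22 families, 0% were called higher and 0% lower by Fisher's exact test, and 3 had an unadjusted p under 0.05. RUNX was present in 7.68% of AP-1-free against 11.6% of AP-1 regions (−3.89 points, 95% interval −6.81 to −1.34; adjusted p = 0.0614, Fisher's exact test) and ETS in 9.04% against 12.04% (−3.01 points; adjusted p = 0.2). The 4-base-spacer STAT site was present in 6.89% against 3.96% (2.93 points; adjusted p = 0.0752, Fisher's exact test). Without Th9 replicate 2, the STAT site and RUNX were called. The 3-base-spacer palindrome was present in 8.42% and 10.3% (difference −1.88 points, 95% interval −4.70 to 0.580).

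Regions seen in the libraries of 1 cell type only were also compared, which mostly set 1 library against another. In all, 1480 regions were called in Th17 replicate 3 only and 621 in Th9 replicate 1 only. Regions are not replicates, so these tests do not compare cell types. Between the 1530 seen in Th17 libraries only and the 679 seen in Th9 libraries only, 0% of 26 families were called higher in Th17 and 0% lower (Fisher's exact test, adjusted), and 5 had an unadjusted p under 0.05. The half-variant was present in 13.8% of Th17-only and 10.2% of Th9-only regions (3.63 points, 95% interval 0.639 to 6.37; adjusted p = 0.237, Fisher's exact test), and 1-mismatch words in 55.2% and 49.2% (adjusted p = 0.237). ISRE was present in 4.64% and 2.80%, and the NF-kB site in 2.35% and 4.12%. STAT was present in 7.58% of Th17-only and 10.01% of Th9-only regions (−2.43 points, 95% interval −5.21 to 0.0595; adjusted p = 0.259, Fisher's exact test).

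Library by library, the shares of the half-variant, RUNX and STAT overlapped between the cell types. The half-variant was present in 12.7% and 21.4% of regions for Th9 replicates 1 and 2 and in 14.8% and 30.9% for Th17 replicates 3 and 4, higher in the smaller library of each type. RUNX was present in 8.01% and 14.3% against 7.51% and 13.2%, and STAT in 10.04% and 13.1% against 7.70% and 11.8%. NF-kB sites did not overlap, at 4.66% and 4.76% against 2.61% and 2.94%, nor did ETS, at 8.01% and 9.52% against 9.74% and 10.3%, nor the 4-base-spacer STAT site, at 7.57% and 10.7% against 6.62% and 2.94%. GATA (24.3% and 23.8% against 23.2% and 11.8%) and the MYC E-box CACGTG (1.46% and 0% against 1.59% and 1.47%) were likewise apart. Exact permutation tests of 2 against 2 libraries gave p = 0.667 for the half-variant and 0.333, the smallest p this test allows, for each family that did not overlap. The families named as apart were the only ones of the 26. Relabelling the libraries would set any family apart with that same p, so this was not read as a difference between cell types. Shares in Th9 replicate 2 and Th17 replicate 4 rest on 84 and 68 regions.

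Genes of T helper biology were among those nearest to an AP-1-free distal region. The 2279 regions had 1943 nearest genes, 7.42% of the 26180 with a curated start site and, among protein-coding genes, 1480 of 21000 (7.05%). Of 134 genes listed for T helper cells, 35 (26.1%) were nearest to at least 1 of these regions, which accounted for 48 members. No test was made, since the list was chosen with earlier results in view, and genes with wide intergenic space catch more regions. Among 16 effector cytokines they were *Il17a*, *Il10* and *Il21*, and among 24 cytokine receptors *Il1r2*, *Il1rl1*, *Il7r*, *Il12rb2* and *Tgfbr2*. Of 49 transcription factors there were 14, including BATF's own gene *Batf*, its relative *Batf3*, its partner *Jun*, and *Maf*, *Bach2*, *Ets1*, *Ikzf2*, *Satb1* and *Lef1*. Of 45 surface and signalling genes there were 13, including *Ctla4*, *Icos*, *Cd28*, *Pdcd1*, *Havcr2*, *Tigit*, *Cxcr4* and *Cxcr5*.

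Besides those near *Hif1a* and *Icos*, 6 of these 48 regions are named by their strength. The region at chr4:156008277-156008583, in an intron 5243 bp upstream of the start of *Tnfrsf4*, which encodes the costimulatory receptor OX40, had −log10 q of 6.15 and 5.67 in the Th9 libraries and 22.6 in Th17 replicate 3. It held the composite TCAGTCATTTC, beginning 21 bp before the summit. The region at chr1:128832358-128832619, 240220 bp upstream of the chemokine receptor gene *Cxcr4*, was called in Th17 replicate 3 only (22.6). The intronic region 7239 bp downstream of the start of *Bach2*, a bZIP repressor that competes for AP-1 sites, was called in both Th17 libraries (16.9 and 7.93) and held a RUNX site 21 bp after the summit. That within *Ikzf2*, which encodes Helios, was called in Th17 replicate 3 (12.99).

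The remaining regions named lay near cytokine genes. That near *Il17a* had its highest −log10 q in the smallest library, Th17 replicate 4, although such values are not comparable between libraries. That near *Il10* had a peak in this library only. The region at chr1:20740486-20740977, between genes and 9969 bp downstream of the start of *Il17a*, the defining cytokine of Th17 cells, had −log10 q of 12.7 in Th17 replicate 4, 6.001 in Th17 replicate 3 and 6.42 in Th9 replicate 1, and no peak in Th9 replicate 2. It was thus called in both cell types. It held a STAT palindrome TTCCTGGAA 90 bp before the summit, TTAGTCA, the complement of TGACTAA, 77 bp before it, and an ETS site beginning 4 bp before it. The region at chr1:131022653-131022866, in an intron 2923 bp from the start of *Il10*, which encodes an anti-inflammatory cytokine made by several T helper types, was called in Th17 replicate 4 only (12.7). It held an ISRE 61 bp after the summit and no 1-mismatch AP-1 word within 100 bp.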

How the data were processed

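BATF ChIP-seq reads of 2 Th9 and 2 Th17 libraries had been trimmed with Trim Galore 0.4.3 and aligned to mm10 with Bowtie2 by the authors, and peaks had been called with MACS2 2.1.0 on read pairs, at q under 0.01 and without removal of duplicates. Keeping duplicates can raise a region that a few amplified fragments cover. The deposited lists give a fold enrichment (a ratio over the local background) and a −log10 q per peak and summit, with no read counts. The study's methods state 1 approximate read number for all libraries, but none per library, and the number of peaks, 199 to 4111 per library, limits the precision. Each library had 3 lists, against input, IgG and both, as their names state. Values are from the lists against both.

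Peaks were merged at 1 shared bp, and the summit of the highest −log10 q was kept. Soft masking and sequence came from the RefSeq FASTA of GRCm38, and start sites and annotation from RefSeq release 108.20200622. Sites were searched with Python 3.11.15, numpy 2.4.6 and pysam 0.24.0. Fisher's exact tests were run with scipy 1.17.1 and the logistic regression with statsmodels 0.14.6. Permutations and the Benjamini-Hochberg adjustment were computed with numpy. Intervals of shares are exact (Clopper-Pearson) and those of differences between shares are Newcombe intervals. Scripts were tested on simulated data. A G-quadruplex pattern was 4 or more runs of G, each of 3 or more, with short gaps, on either strand.

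The groups were those of the labels. Members and lists were chosen with earlier results of these data known. Members were named if called in 3 or more libraries (10 highest by summed −log10 q), among the 3 highest of a library, the highest with a site of a called family within 50 bp of the summit, or nearest to a listed T helper gene (8 highest). Words were named if among the 10 of lowest p in a direction. Labels do not say whether libraries came from separate cultures, so p-values over regions measure the spread between regions of these libraries only. Alternatives changed the flanks, window, strength, start sites, masking, control lists, libraries and test. Those restricted to unique centre words or to 1 cell type were added after seeing the data. Input and IgG libraries entered only through the peak lists.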

Additional observations from a re-analysis of the deposited data

How the results depend on the processing

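No paired analysis was possible because Th9 libraries carry the numbers 1 and 2 and Th17 libraries 3 and 4, so the groups share no number. The number of regions was 901 at a −log10 q of 5 or more, 843 with no masked base in the window, 737 from Th9 libraries alone and 55 when demanding a call in each library of 1 cell type (both libraries below), and 786 to 2246 without 1 library each, the lowest without Th17 replicate 3. Families called higher than flanks (9) numbered 5 with flanks 5000 bp away, 4 in regions of both libraries, 2 with no masked base, 1 in windows lacking near AP-1 words, 5 with unique centre words, 4 in Th9 libraries alone and 5 to 8 without 1 library each (5 without Th17 replicate 3 or 4), and all of these were among the 9. Families called lower (1) numbered 0 in regions of both libraries, 2 with no demand for all 3 lists and 0 with no masked base, and 1 to 1 without 1 library each. Higher 6-letter words (31) numbered 92 against all flanks, 19 within 50 bp, 50 at a −log10 q of 5, 3 in both libraries, 2 with no masked base and 5 to 30 without 1 library each. Lower words (19) numbered 44 against all flanks, 9 within 50 bp, 1 in both libraries, 30 with no demand for all 3 lists, 0 with no masked base and 0 to 17 without 1 library each. GC content differed by −0.50 points (p = 0.0576, permutation) at a −log10 q of 5, by −0.54 (p = 0.163) with no masked base, by −3.25 (p = 0.00419) in regions of both libraries and by −0.59 to −0.36 without 1 library each. Families differing from AP-1 distal regions (0) numbered 2 with no demand for all 3 lists (ETS and RUNX) and 0 to 2 without 1 library each. In regions of both libraries, the recurrence difference was 0 points by construction, since every region then recurs, and the strength differences were −0.37, −3.18 and −1.80 in libraries 1, 2 and 3. The strength difference was −0.65 in library 2 at a −log10 q of 5 and −2.17 in library 4 with no demand for all 3 lists (adjusted p = 0.0133, permutation). Recurrence was −13.1 to −10.2 points without 1 library each. The outer AP-1 consensus differed by 11.04 points in regions of both libraries (p = 0.094, Fisher's exact test), by 3.23 with no masked base (p = 0.0737) and by 1.69 to 4.78 without 1 library each. Signs reversed for the reversed letters of the composite (−0.20 points), C/EBP (−0.068), STAT (−0.25) and ETS (−0.66), for C/EBP in Th9 libraries alone (−0.19) and for STAT in regions of both libraries (−0.13). Other than where fewer regions enter, the cause of these changes was not tested. Setting aside the reversed letters, the half-variant kept its call under all alternatives. RUNX then kept its call under all but windows with no masked base and windows lacking near AP-1 words.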

Other observations

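The fall of GATA words with strength differed between the 2 largest libraries. Among regions with a −log10 q of 8 or more, AGATAA or TGATAA was present in 24 of 264 (9.09%) in Th17 replicate 3 and in 15 of 65 (23.1%) in Th9 replicate 1. The difference was not tested.

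The BATF half-variant was more frequent in regions with a RUNX site than in those without one. It was present in 35 of 175 regions with a RUNX site (20%, exact 95% interval 14.3 to 26.7) and in 12.98% of the other 2104. In ETS regions the share was 13.6% against 13.5%. Among regions without any 1-mismatch AP-1 word, 5.76% of 1042 held a RUNX site against 4.97% of 1731 such flanks, and STAT was present in 7.39% against 7.51%. These shares were chosen after seeing the data and carry no test.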
